A study of Homo sapiens with 12 samples.

Results

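MicroRNA host genes are the genes whose transcripts carry a microRNA hairpin and whose symbols end in HG. They were chosen here by name alone, as every gene in the deposited tables whose symbol begins with MIR and ends with HG, which gave 65 of 60583 genes. By the coordinates in the tables, 63 of the 65 held at least 1 microRNA gene on their own strand, 103 such genes lying wholly inside, and MIR7515HG and MIR670HG held none. RNA polymerase II makes the host transcript, the Microprocessor (the nuclease DROSHA with DGCR8) cuts the hairpin out of it in the nucleus, exportin-5 carries the hairpin to the cytoplasm, and DICER1 trims it to the mature strand that an Argonaute protein holds. Bases 2 to 8 of the mature strand, the seed, pair with target messenger RNAs, so microRNAs with 1 seed form a family even when different hosts make them. What is counted here is the newly made host transcript, not the mature microRNA.

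The nascent RNA of 12 libraries was labelled with 4-thiouridine, fragmented, captured and sequenced (TT-seq). All cells were U2OS, an osteosarcoma line, in 4 groups of 3 replicates: U2OS with siCtrl, U2OS with siINTS11, and U2OS-AsiSI with either siRNA, all taken 48 h after transfection. U2OS-AsiSI cells carry AsiSI-ER, a restriction nuclease that enters the nucleus on hydroxytamoxifen (OHT), and both of their groups received OHT for 1 h while no OHT is given for the U2OS groups, so the line, the nuclease and the drug cannot be told apart in a comparison of lines. INTS11 is the RNA-cutting subunit of Integrator, a complex that ends transcription early at many genes, and the study asked what Integrator does for polymerase elongation. The labels do not say whether replicates were separate cultures, so p-values measure the spread between these libraries, which may be technical. In bulk libraries, fewer cells making an RNA and less RNA per cell cannot be told apart.

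Mature sequences are shown for the hosts on which the results turn, to let a reader see which hosts make identical or near-identical microRNAs. They are RefSeq sequences on GRCh38.p14, written from the 5′ end with the seed in capitals, and 98 of the 104 microRNA genes overlapping a host were in that table. The largest family was let-7, whose seed GAGGUAG occurred in 6 hosts (MIR100HG, MIR99AHG, MIRLET7A1HG, MIRLET7BHG, MIR4458HG and MIR4500HG). The let-7a strand is made by MIR100HG, MIRLET7A1HG and MIRLET7BHG alike:
let-7a-5p: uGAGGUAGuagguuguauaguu
let-7b-5p (MIRLET7BHG): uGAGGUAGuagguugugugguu
let-7c-5p (MIR99AHG): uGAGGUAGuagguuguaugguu
let-7f-5p (MIRLET7A1HG): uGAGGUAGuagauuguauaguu
miR-4458 (MIR4458HG): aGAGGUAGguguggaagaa
Counted from the 5′ end, let-7a differs from let-7c by A19G and from let-7f by G12A, both outside the seed.

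MIR100HG and MIR99AHG are built alike, each with a member of the miR-99/100 family, a let-7 and a miR-125b. The miR-125b strand is identical from both, and miR-100 differs from miR-99a by A16U alone:
miR-100-5p (MIR100HG): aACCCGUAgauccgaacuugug
miR-99a-5p (MIR99AHG): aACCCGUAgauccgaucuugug
miR-125b-5p (both): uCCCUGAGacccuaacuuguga
MIR181A1HG and MIR181A2HG both make the same miR-181a and miR-181b strands, a family known for its role in lymphocyte development:
miR-181a-5p (both): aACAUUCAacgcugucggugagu
miR-181b-5p (both): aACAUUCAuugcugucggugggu

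Other hosts carry their families within 1 transcript. MIR17HG (chr13:91347820-91354579, plus strand) is the short host of the miR-17 to miR-92a cluster, an oncogenic cluster driven by MYC, in which miR-17 and miR-20a share a seed, as do miR-19a and miR-19b (U11C). MIR222HG (chrX:45745211-45770274, minus strand) makes miR-221 and miR-222, which share a seed and repress the cell-cycle inhibitor CDKN1B:
miR-17-5p (MIR17HG): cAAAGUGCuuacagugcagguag
miR-20a-5p (MIR17HG): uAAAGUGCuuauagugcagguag
miR-19a-3p (MIR17HG): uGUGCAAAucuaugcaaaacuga
miR-19b-3p (MIR17HG): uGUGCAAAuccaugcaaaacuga
miR-221-3p (MIR222HG): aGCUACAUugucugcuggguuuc
miR-222-3p (MIR222HG): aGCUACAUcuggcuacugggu
A further 5 hosts described below make microRNAs with seeds found in no other host here:
miR-146a-5p (MIR3142HG): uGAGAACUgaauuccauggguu
miR-31-5p (MIR31HG): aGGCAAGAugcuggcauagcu
miR-3936 (MIR3936HG): uAAGGGGUguauggcagaugca
miR-924 (MIR924HG): aGAGUCUUgugaugucuugc
miR-193b-3p (MIR193BHG): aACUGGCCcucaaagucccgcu
miR-365a-3p (MIR193BHG): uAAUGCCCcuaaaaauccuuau

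Libraries held 20704611 to 38065726 counts. Of 10 osteoblast and mesenchymal markers, 5 averaged at least 10 reads (RUNX2, ALPL, COL1A1, SPARC and VIM) and BGLAP had 0 reads in all 12 libraries. Of 4 blood markers none averaged 10 reads. The summed level of the 10 osteoblast and mesenchymal markers ran from 896 to 945 CPM (counts scaled by library size, TMM-adjusted) in U2OS siCtrl, 650 to 697 in U2OS siINTS11, 771 to 783 in U2OS-AsiSI siCtrl and 583 to 641 in U2OS-AsiSI siINTS11. RUNX2 carried that fall, at group means of 438 and 250 CPM in U2OS and 326 and 155 CPM in U2OS-AsiSI, while ALPL was at 3.08 and 8.69, and 4.64 and 11.5 CPM. The endothelial, epithelial and neural lists stood higher under siINTS11, with the 2 endothelial markers at 1.89 to 2.33 CPM against 5.5 to 6.04 in U2OS and 1.76 to 2.23 against 6.03 to 6.87 in U2OS-AsiSI, and the 4 epithelial markers at 62.5 to 64.2 against 74.3 to 76.9 and 64.8 to 71.3 against 83.9 to 89.5. Of the 2 neural markers SOX2 had 0 reads, and RBFOX3 brought the sum to 285 to 315 CPM against 443 to 473 in U2OS and 313 to 330 against 463 to 497 in U2OS-AsiSI. The part of these shifts in the host gene results was not tested. INTS11 itself stood at 10.1, 8.88 and 10.1 CPM in U2OS siCtrl against 7.86, 7.07 and 7.19 CPM in U2OS siINTS11, and it fell (log2 -0.42, SE 0.09, edgeR adjusted p = 6.08e-05). In U2OS-AsiSI it stood at 9.64, 11 and 9.83 CPM under siCtrl and 9.01, 9.33 and 9.49 CPM under siINTS11, which did not pass (log2 -0.13, SE 0.08, adjusted p = 0.172). The siRNA acts on finished messenger RNA, so the nascent level is a loose check of the labels, and directions below hold for the libraries labelled siINTS11.

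The tables count reads over the whole span of a gene, introns included. All 104 microRNA genes that overlap a host had 0 reads in all 12 libraries, although at the read density of their hosts 3806.5 reads would fall within them. Among all 1853 microRNA genes in the tables, 204 had at least 1 read. Why the counting left these short genes at 0 was not tested, and the host rows are therefore the only measure of microRNA transcription used here.

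Host genes ran from 949 bases to 897 kb in span, with a median of 34.6 kb, and their levels covered several orders of magnitude. Of the 65, 4 had 0 reads in every library, 27 averaged under 10 reads, 28 averaged at least 100 and 16 at least 1000. The 24 hosts that passed no comparison's count filter had at most 13 reads in a library. Their response was not measurable from these counts. Among these 24 hosts, singled out after their values were seen, were the tissue-restricted hosts MIR122HG (liver), MIR205HG (epithelium) and MIR302CHG (pluripotent cells). Not every host known from a tissue was among them: MIR9-3HG, of the neural miR-9, averaged 747.25 reads. Per kb of span, MIR222HG was the highest host in all 4 groups, at 10.3, 12, 11.3 and 13.5 CPM per kb in U2OS siCtrl, U2OS siINTS11, U2OS-AsiSI siCtrl and U2OS-AsiSI siINTS11. MIR17HG followed at 5.21, 6.48, 6.57 and 7.89 CPM per kb. MIRLET7A1HG (3.81 CPM per kb in U2OS siCtrl), MIR34AHG (3.65), MIR193BHG (3.53) and MIRLET7BHG (2.63) came next. The 6 hosts over 500 kb that averaged at least 100 reads stood lower than these per kb. In U2OS siCtrl MIR4435-2HG was at 1.31, MIR924HG at 0.891 and MIR100HG at 0.718 CPM per kb. MIR99AHG was at 0.247, MIR646HG at 0.0402 and MIR3681HG at 0.0273 CPM per kb. Some shorter hosts also stood low, such as MIR9-3HG at 0.57 and MIR762HG at 0.358 CPM per kb. MIR222HG, MIR17HG, MIR34AHG and MIRLET7A1HG exceeded 0.1 reads per base in an average library.

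**Figure D1:**
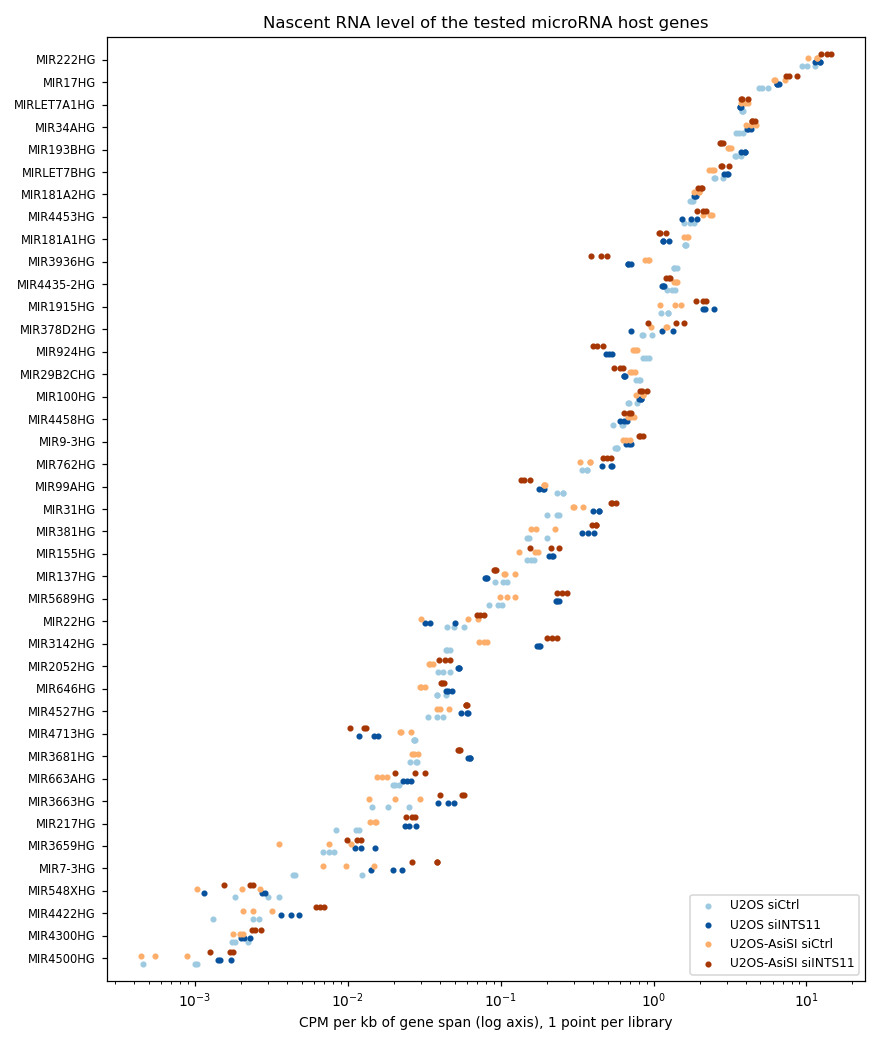
Nascent RNA level of the 41 tested host genes, in CPM per kb of gene span on a log axis, with 1 point per library coloured by group. MIR222HG and MIR17HG stand at the top in all 4 groups, at 10.3 and 5.21 CPM per kb in U2OS siCtrl.

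Under siINTS11 more hosts rose than fell in both lines. In U2OS-AsiSI 40 hosts were tested, of which 21 (52.5%) were higher and 9 (22.5%) lower at an edgeR adjusted p under 0.05, while of the 20441 genes tested 35.4% were higher and 32.6% lower. In U2OS 39 were tested, of which 23 (59.0%) were higher and 8 (20.5%) lower, against 34.5% and 32.4% of 20687 genes. The median log2 fold change was 0.29 in U2OS-AsiSI and 0.20 in U2OS, against 0.03 and 0.02 over all genes tested. A host with few reads passes the count filter more readily when one group is high, so the 28 hosts averaging at least 100 reads were also counted: 13 higher and 9 lower in U2OS-AsiSI (median 0.07), and 16 higher and 8 lower in U2OS (median 0.15). The shares over all genes were not taken at that read number, so they give no matched background for these 28 hosts. Scaling by library totals alone moved the median of all genes to 0.22 in both lines and the share of all calls that were higher from 52.1% to 72.4% in U2OS-AsiSI and from 51.6% to 74.3% in U2OS. The labels record a yeast RNA spike-in, which was not used here, so every change is relative to the other genes. The lines share no library. Of 38 hosts tested in both, 18 were higher in both, 8 lower in both, 1 (MIR193BHG) opposite and 6 past the threshold in neither.

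**Figure D2:**
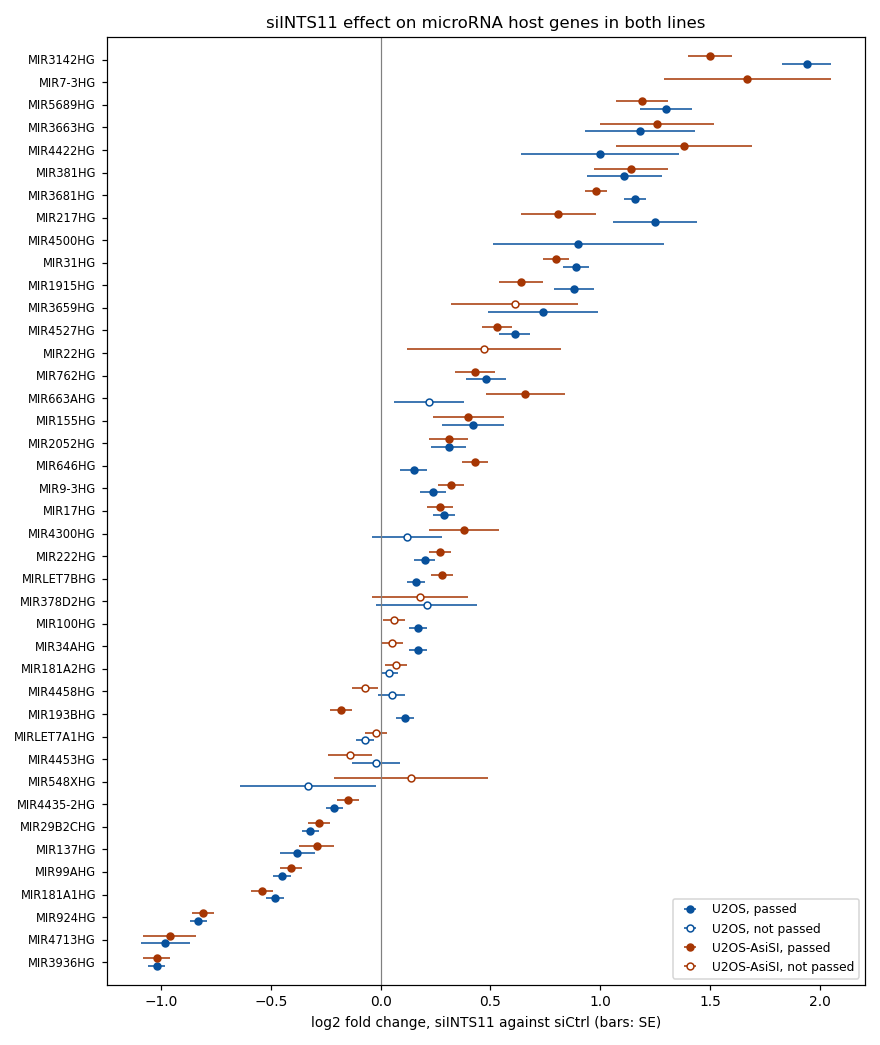
Log2 fold change under siINTS11 against siCtrl (x axis) for each tested host in U2OS (blue) and U2OS-AsiSI (brown), with SE bars, filled where the adjusted p is under 0.05. MIR3142HG is at the top and MIR3936HG, at -1.02 in both lines, at the bottom.

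MIR3142HG (chr5:160438594-160487426, plus strand) rose most among hosts averaging at least 100 reads. It is the host of miR-146a, which damps NF-kB signalling by repressing TRAF6 and IRAK1, and the miR-146a gene lies 46758 bases from the host's start, near its far end. In U2OS it had 63, 77 and 61 reads under siCtrl and 288, 269 and 263 under siINTS11, which is 2.29, 2.18 and 2.15 CPM against 8.70, 8.80 and 8.40 CPM. In U2OS-AsiSI it had 112, 127 and 97 reads under siCtrl (3.80, 3.98 and 3.54 CPM) and 325, 223 and 311 under siINTS11 (11.4, 9.82 and 10.6 CPM). Every siINTS11 library was above every siCtrl library in both lines. The rise was 3.83-fold in U2OS (log2 1.94, SE 0.11, adjusted p = 2.22e-19) and 2.82-fold in U2OS-AsiSI (log2 1.5, SE 0.10, adjusted p = 2.93e-14). The difference between the lines, -0.48 on the log2 scale (SE 0.15), did not pass (adjusted p = 0.061). Its microRNA genes aside, no annotated gene overlaps MIR3142HG on either strand.

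MIR31HG (chr9:21453802-21559900, minus strand) hosts miR-31 and lies beside the CDKN2A tumour-suppressor locus. It stood at 21.2, 25.4 and 24.8 CPM in U2OS siCtrl against 46.6, 42.6 and 46.7 CPM in U2OS siINTS11. In U2OS-AsiSI it stood at 31.8, 31.5 and 36.8 CPM under siCtrl and 60.3, 56.5 and 56.1 CPM under siINTS11. The groups did not overlap in either line, and the log2 fold changes were 0.89 (SE 0.06, adjusted p = 2.48e-17) and 0.80 (SE 0.06, adjusted p = 1.51e-13).

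MIR3681HG (chr2:11833926-12702913, plus strand) was the longest host that rose about 2-fold. Its levels were 22.1, 24.8 and 24.2 CPM in U2OS siCtrl, 53.3, 54.4 and 54.3 in U2OS siINTS11, 23.6, 22.9 and 24.9 in U2OS-AsiSI siCtrl and 46.6, 46.0 and 47.4 in U2OS-AsiSI siINTS11. The 2 siCtrl groups lay on the same level and the siINTS11 groups well above them. Log2 fold changes were 1.16 (SE 0.05, adjusted p = 2.58e-23) in U2OS and 0.98 (SE 0.05, adjusted p = 3.51e-16) in U2OS-AsiSI.

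Further hosts rose at least 2-fold from low levels. At that size 9.73% of all genes tested were higher and 3.26% lower in U2OS-AsiSI, and 9.62% and 3.24% in U2OS, while 7 of 40 and 8 of 39 hosts were changed that far, all of them higher except MIR3936HG. Among the 28 hosts averaging at least 100 reads, 3 in U2OS-AsiSI and 4 in U2OS changed that far. No share of all genes was taken at that read number. MIR3663HG, MIR4422HG and MIR7-3HG had at most 20 reads in any siCtrl library, so they met the count filter wholly or more readily through the siINTS11 group, and nothing is read from the counts that include them. MIR5689HG went from 2.15, 1.87 and 2.29 CPM to 5.20, 5.37 and 5.21 in U2OS (log2 1.30, SE 0.12) and from 2.21, 2.48 and 2.78 to 5.24, 6.08 and 5.68 in U2OS-AsiSI (log2 1.19, SE 0.12). MIR381HG, which holds 6 microRNA genes of the imprinted cluster on chromosome 14, went from 0.983, 1.33 and 1.02 CPM to 2.69, 2.49 and 2.27 in U2OS (log2 1.11, SE 0.17) and from 1.05, 1.5 and 1.13 to 2.62, 2.77 and 2.77 in U2OS-AsiSI (log2 1.14, SE 0.17). Neither host's groups overlapped in either line. MIR3663HG (log2 1.18 in U2OS and 1.26 in U2OS-AsiSI) and MIR4422HG (1.00 and 1.38) averaged 24.42 and 12 reads and carried SEs between 0.25 and 0.36. MIR7-3HG, a host of miR-7, had 7, 5 and 3 reads in U2OS-AsiSI siCtrl and 12, 14 and 18 in U2OS-AsiSI siINTS11, passed the filter there through the siINTS11 group, and was not tested in U2OS. MIR217HG, host of miR-216 and miR-217, which are known from pancreas, rose by log2 1.25 in U2OS (SE 0.19) and 0.81 in U2OS-AsiSI (SE 0.17). Its whole span lies opposite AC011306.1, which also rose (1.02 and 0.64). The libraries are directional, but whether the counting used strand is not given in the sources used here, and without strand the reads of such a pair cannot be told apart.

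Smaller rises that passed in both lines were spread over hosts of very different kinds. MIR1915HG rose by log2 0.88 (SE 0.09) in U2OS and 0.64 (SE 0.10) in U2OS-AsiSI, and MIR4527HG by 0.61 and 0.53 (SE 0.07 in each). MIR762HG rose by 0.48 and 0.43 (SE 0.09), while BCL7C, opposite all of its span, was at -0.10 and 0.09 and did not pass. MIR2052HG rose by 0.31 in both lines, MIR9-3HG, a host of the neural microRNA miR-9, by 0.24 and 0.32, and MIR646HG by 0.15 and 0.43. The 2 hosts with the most reads per base were among them. MIR17HG stood at 38.0, 34.4 and 33.2 CPM in U2OS siCtrl against 44.7, 43.4 and 43.4 in U2OS siINTS11, and at 41.6, 42.4 and 49.2 CPM in U2OS-AsiSI siCtrl and 51.8, 58.6 and 49.5 in U2OS-AsiSI siINTS11. All siINTS11 libraries were above the siCtrl libraries of their line, in U2OS-AsiSI by a narrow margin, and log2 fold changes were 0.29 (SE 0.05, adjusted p = 3.91e-06) and 0.27 (SE 0.06, adjusted p = 0.000315). MIR222HG stood at 254, 235 and 284 CPM in U2OS siCtrl, 287, 308 and 309 in U2OS siINTS11, 295, 258 and 295 in U2OS-AsiSI siCtrl and 343, 361 and 313 in U2OS-AsiSI siINTS11. Its groups also lay apart within each line, with log2 fold changes of 0.20 (SE 0.05, adjusted p = 0.000811) and 0.27 (SE 0.05, adjusted p = 6.29e-05).

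MIR3936HG (chr5:132311285-132370170, minus strand) fell furthest. It stood at 80.2, 79.9 and 83.7 CPM in U2OS siCtrl against 40.2, 40.3 and 42.2 in U2OS siINTS11, and at 54.4, 54.9 and 51.7 CPM in U2OS-AsiSI siCtrl and 29.2, 23.0 and 26.5 in U2OS-AsiSI siINTS11. The log2 fold change was -1.02 in both lines (SE 0.04, adjusted p = 1.21e-23 in U2OS, and SE 0.06, adjusted p = 2.8e-15 in U2OS-AsiSI). Its span lies to 56.6% opposite other genes, of which SLC22A4 was at 0.14 in U2OS and -0.01 in U2OS-AsiSI and SLC22A5 fell by 0.48 and 0.47, so neither antisense partner fell as far.

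MIR924HG (chr18:39206917-39800322, minus strand), with a span of 593406 bases, fell by similar amounts in both lines. It had 503, 530 and 553 CPM in U2OS siCtrl, 304, 289 and 316 in U2OS siINTS11, 465, 450 and 432 in U2OS-AsiSI siCtrl and 275, 239 and 253 in U2OS-AsiSI siINTS11. Log2 fold changes were -0.83 (SE 0.04, adjusted p = 1.36e-20) and -0.81 (SE 0.05, adjusted p = 5.52e-15), and the groups were far apart. MIR4713HG fell from 7.10, 6.98 and 6.98 CPM to 3.05, 3.83 and 4.02 in U2OS (log2 -0.98, SE 0.11) and from 5.73, 6.61 and 5.63 to 2.65, 3.26 and 3.36 in U2OS-AsiSI (log2 -0.96, SE 0.12). Of the genes opposite it, TNFAIP8L3 fell by a like amount (-1.04 in U2OS and -0.94 in U2OS-AsiSI) and CYP19A1, the oestrogen-making aromatase, rose (1.43 and 2.88), with 26.6 and 13.7 reads on average.

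The other falls were smaller and passed in both lines. MIR181A1HG fell by log2 0.48 in U2OS and 0.54 in U2OS-AsiSI, MIR99AHG by 0.45 and 0.41, and MIR137HG, a host of the neuronal miR-137, by 0.38 and 0.29. MIR137HG shares 52.9% of its span with other genes on its strand. MIR29B2CHG, a host of the miR-29 family that represses collagens, fell by 0.32 and 0.28. With library totals alone MIR137HG was at -0.18 (adjusted p = 0.0552) and -0.10 (adjusted p = 0.289), and MIR29B2CHG in U2OS-AsiSI at -0.09 (adjusted p = 0.103), none of which passed. MIR4435-2HG, the host with the most reads (19488.33 on average), fell by 0.21 (adjusted p = 5.07e-05) and 0.15 (adjusted p = 0.00462), but with library totals alone as the scaling it was at -0.01 and 0.04. It shares 22.6% of its span with genes on its strand and lies to 46.8% opposite others, among them BCL2L11, which rose (0.15 and 0.25). No fall in these 5 hosts reached 2-fold.

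**Figure D3:**
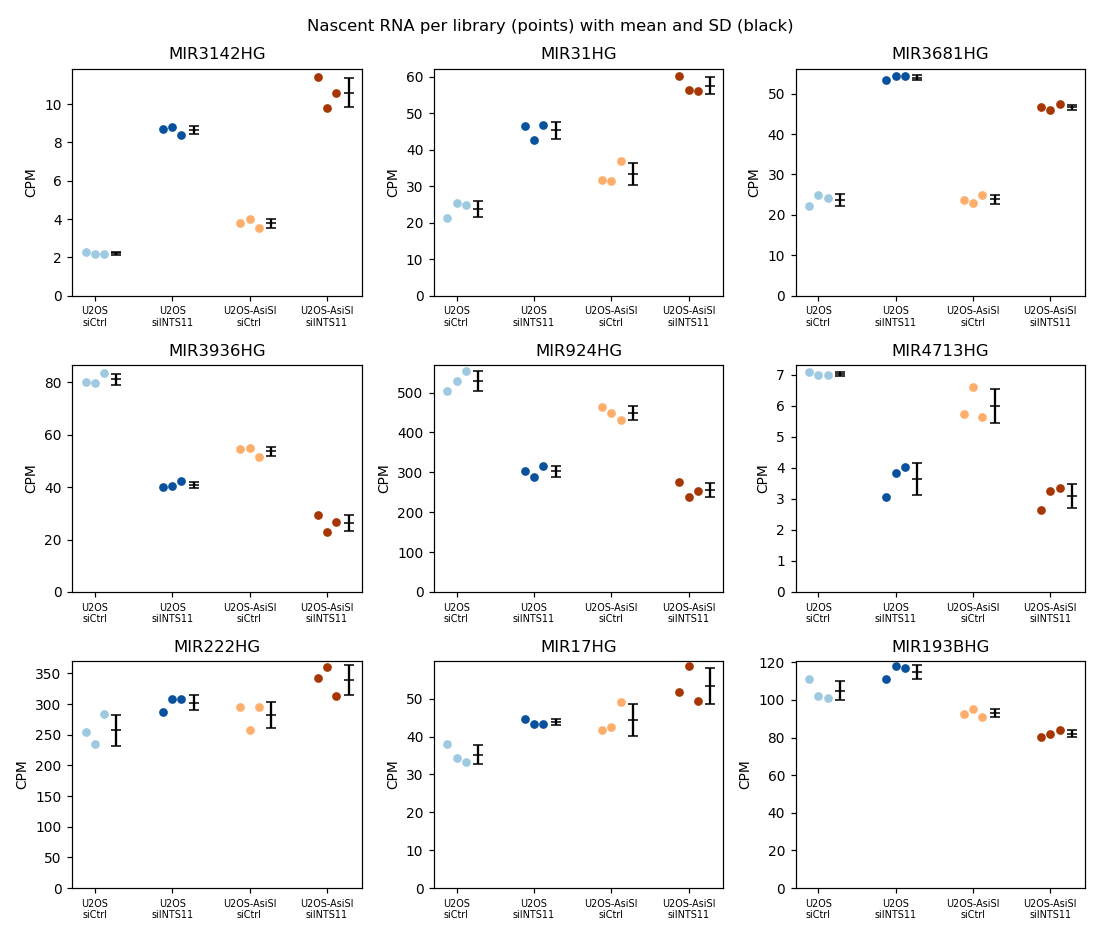
CPM of 9 host genes in each library (points, coloured by group), with mean and SD in black, each panel from 0. The top row shows hosts that rose under siINTS11 in both lines, the middle row hosts that fell, and the bottom row MIR222HG, MIR17HG and MIR193BHG, the last moving up in U2OS and down in U2OS-AsiSI.

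Several well-read hosts did not pass in either line. MIRLET7A1HG stood at 134, 131 and 131 CPM in U2OS siCtrl, 129, 128 and 128 in U2OS siINTS11, 138, 129 and 143 in U2OS-AsiSI siCtrl and 131, 143 and 129 in U2OS-AsiSI siINTS11. Its log2 fold changes were -0.07 (SE 0.04, adjusted p = 0.114) and -0.02 (SE 0.05, adjusted p = 0.68), and 0.13 and 0.17 with library totals alone, so its sign rests on the scaling. MIR181A2HG (0.04 in U2OS and 0.07 in U2OS-AsiSI), MIR4458HG (0.05 and -0.07) and MIR4453HG (-0.02 and -0.14) also did not pass. MIR34AHG, host of the p53 target miR-34a, was 0.17 higher in U2OS (SE 0.04, adjusted p = 0.000357) and at 0.05 in U2OS-AsiSI (SE 0.05, adjusted p = 0.373), and LNCTAM34A, opposite 28.1% of its span, rose in both (0.67 and 0.61). MIR100HG gave 0.17 in U2OS (SE 0.04, adjusted p = 0.00108) and 0.06 in U2OS-AsiSI (SE 0.05, adjusted p = 0.279). For neither did the difference between lines pass (adjusted p = 0.185 and 0.287). The remaining 8 tested hosts averaged 8.25 to 72.17 reads: in U2OS 3 of the 7 tested were higher and 4 did not pass (log2 -0.33 to 0.90), and in U2OS-AsiSI likewise 3 and 4 of 7 (0.14 to 0.66). The 0.90 belongs to MIR4500HG, whose U2OS control libraries held at most 7 reads each and whose knockdown libraries held 11 to 14. It met the count filter wholly or more readily through the siINTS11 group and passed in 4 of 11 alternative fits. Its siINTS11 effect was not tested in U2OS-AsiSI, and nothing is read from the U2OS count that includes it.

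In some pairs of hosts that make an identical mature strand, the share of reads from each host moved under siINTS11. The ratio of 2 hosts' counts within a library needs no scaling between libraries, and 5 pairs of tested hosts share a mature sequence. MIR181A1HG supplied 78.1%, 78.5% and 78.6% of the summed reads of the miR-181 pair in U2OS siCtrl against 70.6%, 71.0% and 73.3% in U2OS siINTS11. In U2OS-AsiSI it supplied 78.2%, 75.9% and 77.3% under siCtrl and 69.5%, 67.7% and 69.2% under siINTS11. The shares did not overlap in either line, and the log2 ratio of MIR181A1HG to MIR181A2HG moved by -0.52 and -0.61. MIR181A2HG lies wholly opposite NR6A1, which fell (-0.83 in U2OS and -0.98 in U2OS-AsiSI), while MIR181A2HG did not pass. With 3 libraries against 3, an exact two-sided permutation test cannot go below p = 0.1, which it reached for this pair in both lines (adjusted p = 0.143 over the 10 pair tests).

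In the miR-125b pair the share moved towards MIR100HG. MIR99AHG fell in both lines, while MIR100HG rose in U2OS (log2 0.17) and did not pass in U2OS-AsiSI (0.06). MIR100HG supplied 68.5%, 66.5% and 69.3% of the reads of MIR100HG and MIR99AHG together in U2OS siCtrl against 75.7%, 77.5% and 76.4% in U2OS siINTS11. In U2OS-AsiSI its share was 76.5%, 74.4% and 76.6% under siCtrl and 81.1%, 81.4% and 81.6% under siINTS11. The siINTS11 shares were above the siCtrl shares in every library, and the log2 ratio moved by 0.61 and 0.48 (exact permutation p = 0.1 in each line). MIR99AHG stood at 168, 182 and 182 CPM in U2OS siCtrl against 137, 127 and 135 in U2OS siINTS11, and at 138, 139 and 138 CPM in U2OS-AsiSI siCtrl and 111, 102 and 97.4 in U2OS-AsiSI siINTS11. MIR100HG stood at 365, 361 and 411 CPM and 427, 437 and 438 in U2OS, and at 449, 405 and 451 and 479, 446 and 431 in U2OS-AsiSI.

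Among the 3 hosts of let-7a, the share moved from MIRLET7A1HG to MIRLET7BHG. MIRLET7A1HG supplied 44.0%, 46.3% and 46.5% of that pair's reads in U2OS siCtrl against 41.5%, 41.0% and 42.5% in U2OS siINTS11, and 49.8%, 46.3% and 49.7% in U2OS-AsiSI siCtrl and 44.0%, 45.8% and 40.8% in U2OS-AsiSI siINTS11. The groups did not overlap, although 1 pair of libraries in U2OS-AsiSI lay close, and the log2 ratio moved by -0.23 and -0.30 (exact permutation p = 0.1 in each line). MIRLET7BHG itself rose by log2 0.16 in U2OS (SE 0.04, adjusted p = 0.00187) and 0.28 in U2OS-AsiSI (SE 0.05, adjusted p = 1.05e-05). The ratio of MIR100HG to MIRLET7BHG moved by 0.01 in U2OS and -0.21 in U2OS-AsiSI with overlapping groups (exact permutation p = 1.0 and 0.2). That of MIR100HG to MIRLET7A1HG moved by 0.24 in U2OS without overlap and by 0.08 in U2OS-AsiSI with overlap (exact permutation p = 0.1 and 0.4). Reads of a longer host weigh more in such a share, so it shows a shift between hosts and not how much hairpin each supplies.

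**Figure D4:**
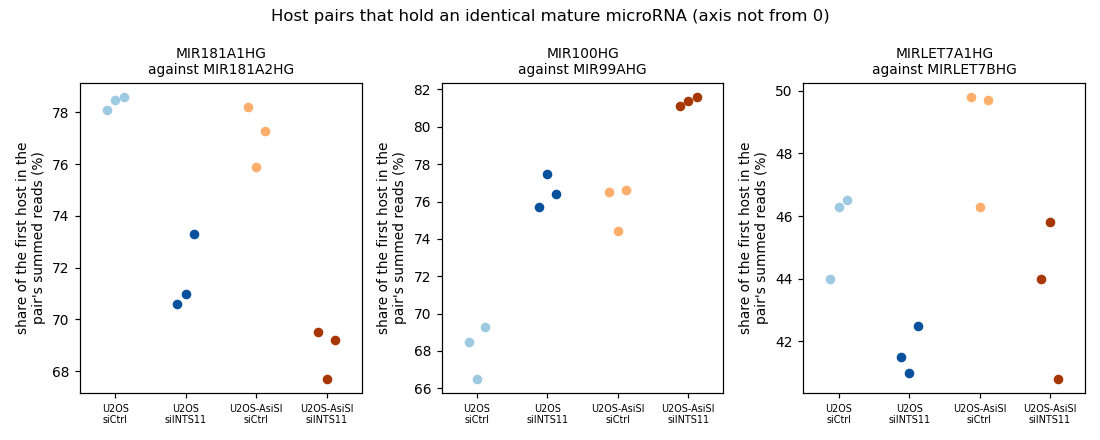
Share of the first-named host in the summed reads of 3 host pairs with an identical mature microRNA, in percent, 1 point per library; the axes do not start at 0. Under siINTS11 the share of MIR181A1HG drops in U2OS from at least 78.1% to at most 73.3%, that of MIR100HG rises and that of MIRLET7A1HG drops.

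A single host differed between lines in its response. Of 41 hosts tested for the difference, 1 was lower in U2OS-AsiSI than in U2OS and 0 were higher, against 3.1% and 0.762% of 21521 genes. At an unadjusted p under 0.05, edgeR put 1 host higher and 4 lower. No share of all genes was taken at that threshold, so nothing is read from this count. With no count filter, with a mean of at least 50 reads, or without U2OS siCtrl replicate 3, 1 host was higher (MIR646HG, at 0.25 in the test reported), DESeq2 put 0 higher and 1 lower, and without U2OS-AsiSI siINTS11 replicate 1, 2 were lower. MIR193BHG (chr16:14301389-14331067, plus strand), host of miR-193b and miR-365a, stood at 111, 102 and 101 CPM in U2OS siCtrl against 111, 118 and 117 in U2OS siINTS11. In U2OS-AsiSI it stood at 92.3, 95.3 and 91.1 CPM under siCtrl and 80.2, 81.8 and 83.9 under siINTS11. The siINTS11 libraries lay below the siCtrl libraries in U2OS-AsiSI, and above them in U2OS, where 1 library of each siRNA rounded to 111 CPM. Its log2 fold change was 0.11 in U2OS (SE 0.04, adjusted p = 0.0207) and -0.18 in U2OS-AsiSI (SE 0.05, adjusted p = 0.00114), and the difference was -0.32 (SE 0.06, adjusted p = 0.0028). The difference passed in all 19 alternative fits run, whereas the rise in U2OS passed in 7 of 13 and the fall in U2OS-AsiSI went to 0.01 with library totals alone. Its hosted microRNA genes aside, no annotated gene overlaps it.

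Comparing the lines under 1 siRNA gave other hosts, and these comparisons use the same libraries as those above. Under siCtrl 9 of 37 hosts were higher in U2OS-AsiSI and 8 lower, against 17.8% and 17.2% of 19935 genes. MIR3142HG was 0.78 higher on the log2 scale (SE 0.13, adjusted p = 2.84e-05), MIR31HG 0.48 (SE 0.07, adjusted p = 1.7e-06), MIR4453HG 0.40 (SE 0.10) and MIR17HG 0.34 (SE 0.06). MIR3936HG was at -0.59 (SE 0.05, adjusted p = 7.41e-12), MIR646HG at -0.39 (SE 0.07) and MIR99AHG at -0.35 (SE 0.04). Under siINTS11 13 of 41 were higher and 6 lower, against 22.2% and 21.4% of 20802 genes, and 8 were higher by DESeq2 or without U2OS-AsiSI siINTS11 replicate 2. The 13 include MIR22HG, MIR7-3HG and MIR4422HG, with at most 22 reads in any library. They met the count filter wholly or more readily through the U2OS-AsiSI siINTS11 group, so nothing is read from that count. Of the 28 hosts averaging at least 100 reads, 10 were higher and 6 lower under siINTS11. No share of all genes was taken at that read number. Under siINTS11 MIR193BHG was at -0.46 (SE 0.04, adjusted p = 2.01e-11), MIR3936HG at -0.60, MIR99AHG at -0.32, MIR31HG at 0.39 and MIR3142HG at 0.34.

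Factors of the microRNA pathway, called processing factors here, were counted from a list of 38, of which 36 were tested. The list also holds factors that act on exported hairpins or mature strands. HNRNPA1 had 0 reads in all 12 libraries and LIN28A at most 5 in a library, and neither was tested. In U2OS-AsiSI 6 (16.7%) were higher and 15 (41.7%) lower, where 35.4% and 32.6% of all genes were, and in U2OS 3 (8.33%) were higher and 15 (41.7%) lower, where 34.5% and 32.4% were. The number higher in U2OS-AsiSI ran from 2 by DESeq2, or without U2OS-AsiSI siINTS11 replicate 2, to 20 with library totals alone, which left 9 lower there and gave 22 higher and 6 lower in U2OS. The direction of the list therefore rests on the scaling. The nuclease DROSHA fell by log2 0.23 in U2OS-AsiSI (SE 0.05, adjusted p = 7.42e-05) and 0.20 in U2OS (SE 0.04, adjusted p = 3.49e-05), and DICER1 by 0.35 (adjusted p = 7.19e-08) and 0.36 (adjusted p = 3.87e-10). DROSHA's fall did not pass with library totals alone. DGCR8, the partner of DROSHA, was at 0.02 (adjusted p = 0.692) and -0.11 (adjusted p = 0.017), and the exporter XPO5 at 0.07 and 0.08, neither passing. AGO4 fell by 0.66 and 0.72, while AGO2, the slicing Argonaute, was at -0.09 in U2OS-AsiSI without passing and fell by 0.22 in U2OS. TNRC6C, an Argonaute-binding silencing protein, fell by 0.58 and 0.53, ZC3H7A by 0.66 and 0.52, and DIS3L2, an exonuclease that degrades tailed let-7 precursors, by 0.39 and 0.31. Among those that rose were TARBP2, the partner of DICER1 (0.44 and 0.52), and NCBP2 of the cap-binding complex (0.41 and 0.39), both named after their values were seen. LIN28B, which blocks let-7 maturation, was also named after its values were seen. It fell by 0.35 in U2OS-AsiSI (SE 0.05, adjusted p = 1.31e-07), was at -0.01 in U2OS (SE 0.04, adjusted p = 0.821), and differed between the lines by -0.37 (SE 0.06, adjusted p = 0.00109).

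Other gene classes give the setting for the host counts. Protein-coding genes that hold a microRNA gene on their strand gave 226 higher and 334 lower of 810 in U2OS-AsiSI (median log2 -0.06), and 189 and 373 of 810 in U2OS (median -0.10). With library totals alone the split turned, to 397 higher and 216 lower in U2OS-AsiSI and 372 and 209 in U2OS. Long non-coding LINC genes gave 412 higher and 168 lower of 785 in U2OS-AsiSI (median 0.40) and 420 and 170 of 804 in U2OS (median 0.42). Of the SNHG genes, hosts of small nucleolar RNAs, 14 of 23 were higher and 5 lower in U2OS-AsiSI, and 9 and 5 in U2OS; 9 were higher in U2OS-AsiSI without siCtrl replicate 2 or siINTS11 replicate 2. In U2OS-AsiSI the share of genes that were higher was thus 52.5% among microRNA hosts, 52.5% among LINC genes and 27.9% among protein-coding hosts, and in U2OS 59.0%, 52.2% and 23.3%, beside 35.4% and 34.5% of all genes. The host shares include those of MIR3663HG, MIR4422HG, MIR7-3HG and MIR4500HG that were tested in a line. These met the count filter wholly or more readily through the siINTS11 group. Of the 28 hosts averaging at least 100 reads, 46.4% were higher and 32.1% lower in U2OS-AsiSI, and 57.1% and 28.6% in U2OS. The other classes were not counted at that read number, so no matched share is at hand. The difference between these classes was not tested.

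Correlations across hosts describe how the response varied with length and read number. Spearman's rho of log2 fold change with span was -0.24 over 40 hosts in U2OS-AsiSI and -0.28 over 39 in U2OS, and with the mean count -0.62 and -0.51, where weakly read hosts pass the filter more readily when they differ. Over the 28 hosts averaging at least 100 reads, rho with span was -0.21 and -0.28. With the distance from the host's start to its first microRNA gene rho was -0.22 and -0.23. These are descriptions across genes of the same libraries, and genes are not independent replicates. Of the 6 hosts over 500 kb that averaged at least 100 reads, MIR924HG, MIR99AHG and MIR4435-2HG fell and MIR3681HG and MIR646HG rose in both lines, and MIR100HG rose in U2OS and did not pass in U2OS-AsiSI.

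**Figure D5:**
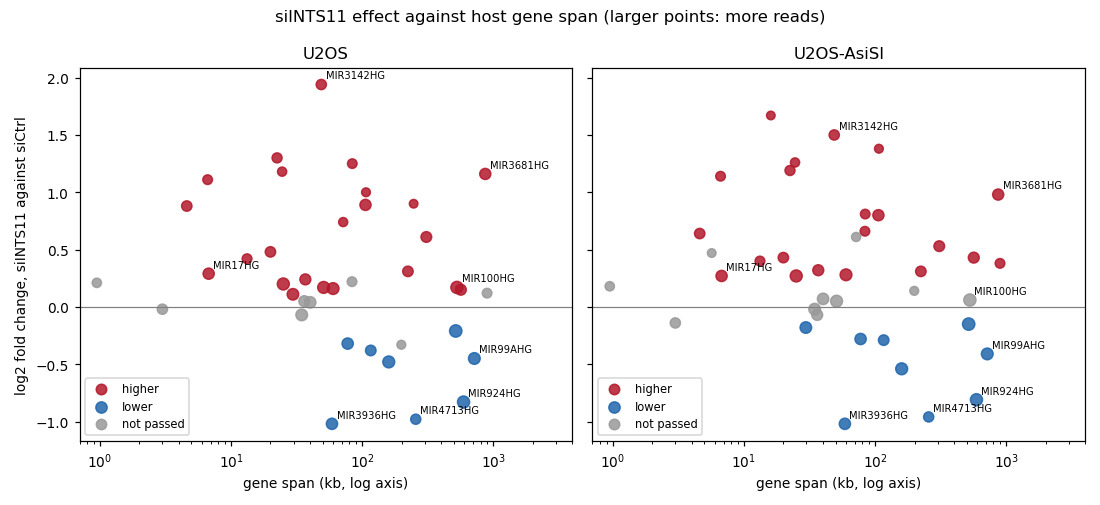
Log2 fold change under siINTS11 (y axis) against host gene span in kb (log x axis) in U2OS (left) and U2OS-AsiSI (right), coloured by call, larger points for more reads. Hosts over 500 kb include both MIR3681HG at 1.16 in U2OS and MIR924HG at -0.83.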

How the data were processed

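The deposited tables hold whole-number read counts per gene, made by the authors over the gene span with introns, under symbols with coordinates and strand per the file headers. The submitters' processing notes name Trimmomatic 0.36, STAR 2.7, featureCounts, deepTools and the build hg38, without roles. How strand and duplicate reads were handled is not given in the sources used here. Samples were grouped by their titles, 3 replicates in each of 4 groups, with 20704611 to 38065726 counts per library. With no molecular identifiers, 2 reads may copy 1 molecule.

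The main test was the quasi-likelihood test of edgeR 4.0.16 (R 4.3.3; filterByExpr, TMM scaling, two-sided), fitted on all genes over the 6 libraries of a comparison, or over all 12 with the interaction of siRNA and line. Benjamini-Hochberg adjustment ran over every gene tested, with 0.05 as the threshold. Each SE was derived from the fold change and its F statistic. CPM were TMM-scaled over the 12 libraries. Levels were compared between genes per kb of span. Members, lists and tests were chosen with earlier results of these data known. Host genes named are those averaging at least 100 counts or changed at least 2-fold past the threshold, and a few others named after their values were seen. Of the processing list, 5 fixed genes and up to 4 others with the smallest adjusted p were named. NCBP2, TARBP2, AGO1 and LIN28B were named after their values were seen. Ratios of hosts with an identical mature strand used counts with no scaling, and exact permutation tests over libraries.

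Mature sequences and microRNA positions came from RefSeq GRCh38.p14, where 86 of 87 matched hairpins had the start and end of the deposited tables. Of the 65 hosts, 59 were found in GENCODE 29 and 63 in RefSeq. Alternatives were other size factors, library totals alone, other count filters, a replicate block, DESeq2 1.42.0, each library left out, hosts without same-strand overlap and, chosen after seeing the data, libraries thinned to the smallest total. Same-numbered replicates did not deviate together, so numbers were not taken as pairs. On simulated counts, edgeR recovered 93.9% of 2-fold genes in U2OS-AsiSI (20152 genes, 6.59% of calls false). It recovered 85.7% in U2OS (20399 genes, 5.99% false) and 70.4% for the difference between lines (20981 genes, 10.1% false). In each simulation only a small part of the genes was changed, in random directions. In the real data 35.4% of genes were higher and 32.6% lower in U2OS-AsiSI. The recovered and false shares therefore hold for the simulated setting only. Replicates of each group differed by more than counting noise, at 1.93 to 3.25 chi-square units per degree of freedom.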

Additional observations from a re-analysis of the deposited data

Results flagged for a closer look

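Among the host genes and the listed microRNA processing factors, the effect of siINTS11 differed between the lines in 3 genes past the threshold of the interaction test over all 12 libraries. Of 41 hosts tested 1 (2.44%) was lower, and of 36 factors tested 2 (5.56%) were, with 0 higher in either list. Of all 21521 genes tested, 164 (0.762%) were higher and 668 (3.1%) lower by that test. The counts lie near the shares over all genes, so nothing is read from them about either list. For MIR193BHG, U2OS-AsiSI minus U2OS was -0.32 on the log2 scale (SE 0.06, adjusted p = 0.0028). The difference passed in 19 of 19 alternatives. For LIN28B, the inhibitor of let-7 maturation, it was -0.37 (SE 0.06, adjusted p = 0.00109), also in 19 of 19. For AGO1, an Argonaute, it was -0.21 (SE 0.06, adjusted p = 0.0417), and it passed in 3 of 19 alternatives. The labels give OHT for the U2OS-AsiSI groups alone, so the line, the nuclease and the drug cannot be told apart in these differences.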

How the results depend on the processing

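Of the values recomputed for single host genes, 2615 kept their side of the threshold, 87 lost the call, 35 gained one and 4 changed sign while past the threshold in either fit. Values past it in neither fit also changed sign in places and are counted among the 2615. The 4 changes of sign came with library totals alone, a scaling that raises most genes: MIR193BHG went to 0.01 and MIR4435-2HG to 0.04 in U2OS-AsiSI, and MIRLET7A1HG to 0.17 there and 0.13 in U2OS. Among the processing factors named in the text it turned AGO2 in U2OS-AsiSI to 0.10, and in U2OS AGO1 to 0.11, DGCR8 to 0.09 and LIN28B to 0.19. The same scaling left 5 hosts lower in U2OS-AsiSI and 5 lower in the siCtrl comparison of lines. It put 20 processing factors higher and 9 lower in U2OS-AsiSI, 22 and 6 in U2OS, and 12 and 5 between lines under siCtrl. It put 397 protein-coding hosts higher and 216 lower in U2OS-AsiSI and 372 and 209 in U2OS, and left 3 SNHG genes lower in each line, with 17 higher in U2OS.

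Counting only hosts with no overlap on their strand, which drops hosts by construction, left 5 lower in U2OS-AsiSI, 15 higher and 4 lower in U2OS, 5 lower between lines under siCtrl, and 8 higher and 3 lower between lines under siINTS11. The last of these had 8 higher with DESeq2. For the difference between lines, no count filter and a mean of at least 50 each gave 1 higher host. That mean filter, which tests fewer genes, also gave 10 processing factors higher in U2OS-AsiSI and 6 in U2OS, and 216 and 233 LINC genes higher. Median-of-ratios size factors gave 3 processing factors higher in U2OS-AsiSI and DESeq2 2. The number of processing factors differing between lines was 1 with size factors, no filter, the mean filter, DESeq2, the replicate block and thinned libraries.

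Leaving out 1 library at a time gave 20 to 22 hosts higher in each line, with 9 lower in U2OS-AsiSI and 8 in U2OS each time. Between lines under siCtrl 8 to 10 were higher and 6 to 7 lower, and under siINTS11 8 to 13 and 5 to 7. The difference had 0 to 1 higher and 1 to 2 lower hosts. Processing factors ran from 2 to 7 higher in U2OS-AsiSI, 3 to 7 higher and 5 to 10 lower under siCtrl, 7 to 11 and 9 to 13 under siINTS11, and 1 to 2 for the difference. SNHG genes ran from 9 to 16 higher in U2OS-AsiSI and 3 to 5 lower in U2OS. The causes of the changes in these counts were not tested, beyond those of the construction named.

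Replicate numbers did not pair the libraries: same-numbered deviations correlated at 0.14, 0.01 and 0.02 in U2OS-AsiSI and -0.03, -0.04 and 0.03 in U2OS. With the replicate block, 21 hosts were higher and 9 lower in U2OS-AsiSI, and 22 and 8 in U2OS. Of 65 hosts, 24 passed no count filter. Among these, MIR583HG, MIR670HG and MIR4307HG share 100% of their span with a gene on their strand and had 0 reads. Whether depth or the counting of shared spans kept hosts low was not tested.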
